A study of Rattus norvegicus with 10 samples.

Results

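The transcripts of interleukin-6 (IL-6), of related cytokines, and of their receptors and signaling proteins were examined in rat macrophages that had taken up myelin. Probe sets were chosen by gene symbol from the array annotation: every probe set whose only symbol is Il6, Il6r, Il6st, Osm, Osmr, Lif, Lifr, Socs3 or Stat3 was taken. This gave 8 genes with 13 probe sets, of 14217 named genes and 31042 probe sets tested, and no probe set carried the symbol Osmr alone. The rule has no threshold on signal, but the family was put together with earlier results of the same contrast known, so the differences between groups given here are a description and no independent evidence. An adjusted p says only on which side of the array-wide threshold a probe set lay.

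The mye-macrophages (5 samples) were resident peritoneal macrophages of Hsdcpb:WU rats given 100 µg/ml of isolated myelin for 3 days, and the control macrophages (5 samples) were the same cells cultured without myelin. After the 3 days the myelin was washed away, and both groups were then stimulated for 9 hours with IFNγ and IL-1β at 100 ng/ml. No array therefore shows unstimulated cells, and the arrays measured transcripts, not secreted protein. Each sample had 1 Affymetrix rat expression array, and signal is given as the deposited log2 value after RMA, in which a difference of 1 is a doubling. Probes differ in how strongly they bind, so a level set against other probe sets, or averaged over a list, is only a rough guide. Samples of the 2 groups with the same replicate number varied together and are called a pair. Whether the samples came from separate animals is not stated in the labels, so the p-values measure only the spread between these samples, which may be technical.

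Cytokines of the IL-6 family share a receptor chain, gp130, encoded by Il6st. IL-6 binds its own receptor chain (Il6r) first, whereas leukemia inhibitory factor (Lif) and oncostatin M (Osm) bring gp130 together with the chains encoded by Lifr and Osmr. The assembled receptors activate Janus kinases, which phosphorylate the transcription factor STAT3, and STAT3 induces Socs3, an inhibitor that binds gp130 and shuts the signal off. Macrophages are a main source of IL-6 and oncostatin M in inflamed tissue, and IL-1β drives Il6 transcription largely through NF-κB and C/EBP proteins.

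Of the family, Il6 itself had the largest difference between mye-macrophages and control macrophages, and it was the only probe set to pass. Its signal was 5.83, 5.58, 7.06, 7.29 and 6.58 in mye-macrophages 1 to 5, against 7.05, 6.37, 7.87, 7.89 and 7.60 in control macrophages 1 to 5. The groups overlapped, because the lowest control sample lay under 3 of the mye-macrophage samples, but within each of the 5 pairs the mye-macrophage sample was the lower one. Il6 averaged 6.47 ± 0.75 in mye-macrophages and 7.36 ± 0.65 in control macrophages (SD, n = 5 each), a log2 fold change of -0.89 (standard error 0.093), or 54.1% of the control level. Over the pairs the difference ran from -1.22 to -0.60. In limma, blocked on replicate number, with Benjamini-Hochberg adjustment over all probe sets tested, Il6 fell with an adjusted p of 0.00817.

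This call rests on the pairing. The spread of Il6 between samples of a group was close to the size of the difference, and limma without the block gave the same fold change with a standard error of 0.37 and an adjusted p of 0.996. With the block the adjusted p was 0.0509 without pair 2 and 0.0502 without pair 5, at log2 fold changes of -0.91 and -0.85. RNA quality can be read from beta-actin, as the log2 signal of its 3 prime probe set minus that of its 5 prime one. That value was larger in the mye-macrophage sample in 4 of 5 pairs, but pair 4 was nearly level with a difference of 0.0015. Over the pairs its difference ran from -0.21 (pair 3) to 0.82 (pair 1). This gap averaged 3.30 ± 0.32 in mye-macrophages against 3.02 ± 0.30 in control macrophages (SD, n = 5 each). With that gap as a covariate Il6 had -0.77 (limma, adjusted p = 0.0897), and its part in the difference was not tested further. In bulk samples fewer cells with Il6 transcripts and fewer transcripts per cell cannot be told apart.

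**Figure D1:**
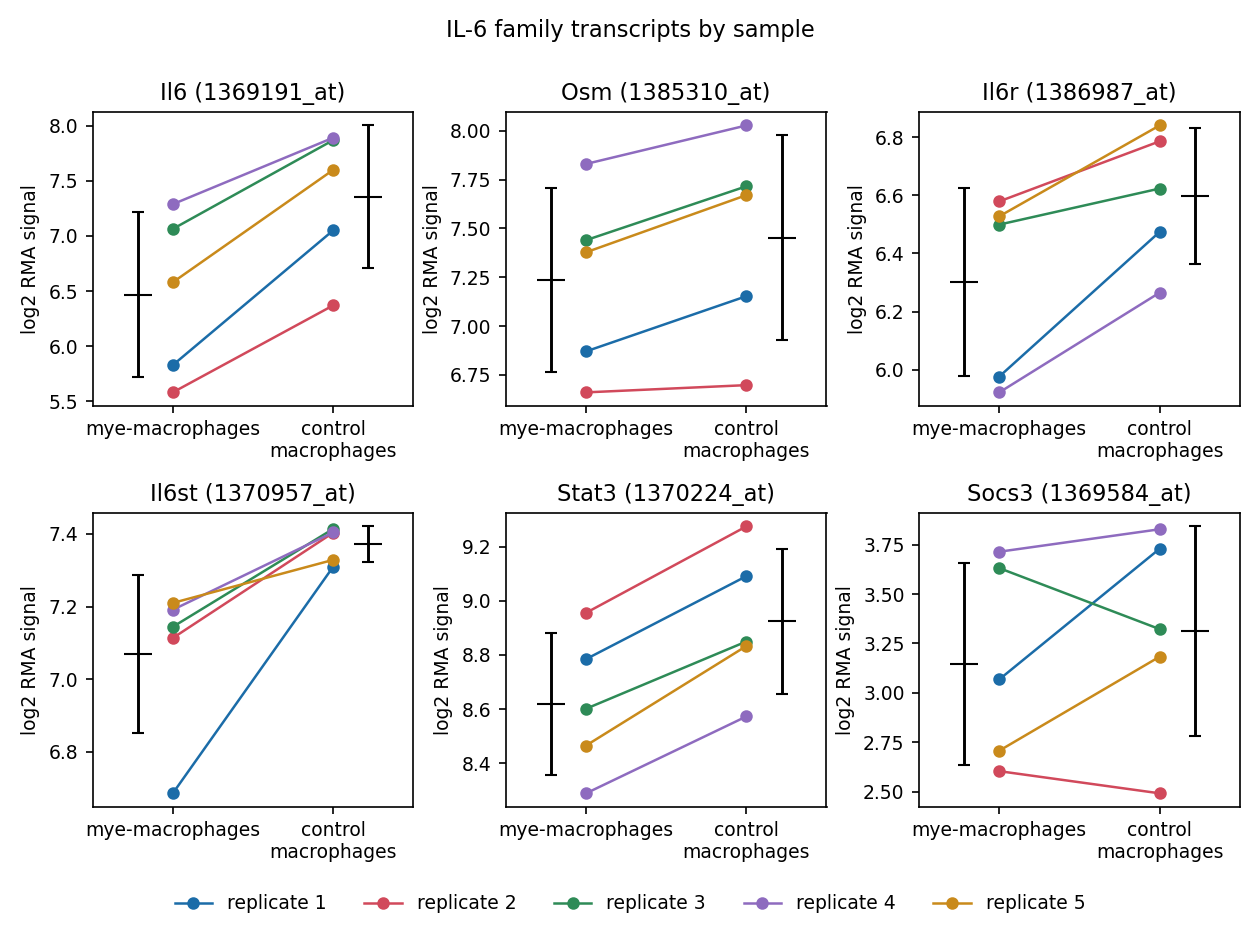
Log2 RMA signal of 6 probe sets in mye-macrophages (left) and control macrophages (right). Each line is 1 pair and black bars give the mean ± SD of 5 samples. The Il6 lines all slope the same way, with pair differences of -1.22 to -0.60, while those of Socs3 cross.

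The bases before the Il6 start are shown because Il6 is the gene that passed and because the factors known to switch it on in macrophages bind there. The stretch is chr4:5894576-5894825 of the rat build GRCr8 on the minus strand, the 250 bases that end just before the RefSeq gene start, printed 5′ to 3′ with 3 motif matches in capitals.

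Il6: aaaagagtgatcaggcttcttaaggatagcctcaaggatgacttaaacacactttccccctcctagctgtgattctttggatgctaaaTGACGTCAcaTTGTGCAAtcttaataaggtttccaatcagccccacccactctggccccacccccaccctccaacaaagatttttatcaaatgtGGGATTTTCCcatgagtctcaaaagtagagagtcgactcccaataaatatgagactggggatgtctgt

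Read from the left, the capitals are a cAMP response element (TGACGTCA, bases 162 to 155 before the start), a C/EBP match (TTNNGCAA, bases 152 to 145) and an NF-κB match (GGGA and TTCC with any 2 bases between, bases 68 to 59), and none of them overlap. Both strands were searched. Among 33469 RefSeq promoters of the same length, 1.59% held the first motif, 9.22% the second and 1.08% the third. Of the 7 family genes with a promoter in the table (all but Osm and Lif), Il6 alone held any of these 3. The STAT motif TTCNNNGAA, found in 7.67% of all promoters, was in none of the 7, and the AP-1 motif TGANTCA, found in 6.34%, was in that of Osmr. A match describes letters in a window and does not show that a factor binds.

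Counted over the family, 1 of 13 probe sets was called lower and 0 higher, beside 0.287% of all probe sets called lower and 0.412% called in either direction. At an unadjusted p under 0.05 in the same fit, 7 of the 13 were lower and 0 higher, beside 6.62% of all probe sets lower. This count was 2 without the block and 4 once the beta-actin gap entered the fit. The same 7 probe sets, of Il6, Il6r, Il6st (3 of them), Osm and Stat3, were lower in all 5 pairs, as were 6.59% of all probe sets. The median log2 fold change of the 13 was -0.21, against 0.0044 for all probe sets tested. Once that gap entered the fit, the median of the 13 was -0.11. These probe sets are not independent of each other, since 4 belong to Il6st and 2 each to Stat3 and Lifr. The methods' t-test is unpaired, and their account of the arrays states neither equal variances nor an adjustment. Run here with equal variances, it put 1 of the 13 under 0.05 before adjustment and 0 after it. This held both over all probe sets and after the variance filter. That 1 was the brightest Il6st probe set, and Il6 did not reach an unadjusted p of 0.05 in this test.

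**Figure D2:**
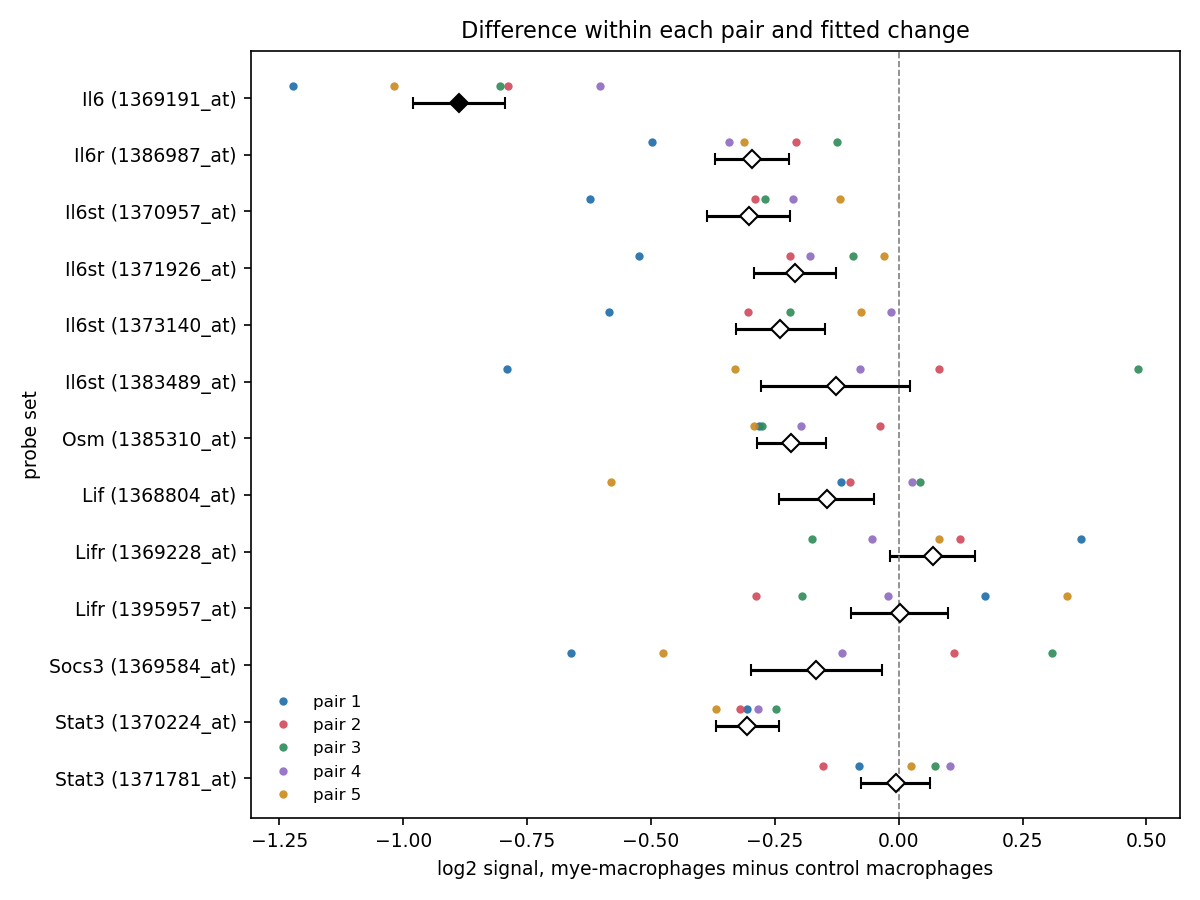
Difference in log2 signal, mye-macrophages minus control macrophages, for the 13 probe sets. Coloured points are the 5 pairs, diamonds the fitted change with its standard error, and the 1 filled diamond (Il6, -0.89) passed an adjusted p of 0.05.

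Among the other ligands, Osm had a difference that was small but of one sign. Its signal was 6.87, 6.66, 7.44, 7.83 and 7.38 in mye-macrophages 1 to 5, against 7.15, 6.70, 7.72, 8.03 and 7.67 in control macrophages 1 to 5. The ranges of the groups overlapped almost fully, and pair 2 was nearly level with a difference of -0.037. The log2 fold change was -0.22 (standard error 0.070, limma with the block, adjusted p = 0.25). Lif, the third ligand, had a low signal throughout, 1.34 to 1.86 in mye-macrophages and 1.43 to 2.02 in control macrophages, below the median of all probe set means (2.32). Its log2 fold change of -0.15 (standard error 0.096) came mostly from pair 5 (-0.58), and 2 of the 5 pairs had a difference above 0. Without pair 5 it was -0.036.

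The receptor chain that is particular to IL-6 was lower in every pair without passing. Il6r had 5.98, 6.58, 6.50, 5.92 and 6.53 in mye-macrophages 1 to 5, against 6.47, 6.79, 6.62, 6.27 and 6.84 in control macrophages 1 to 5. The groups overlapped, and replicates 1 and 4 were the lowest in both. Its log2 fold change was -0.30 (standard error 0.075, limma with the block, adjusted p = 0.137), or 81.4% of the control level.

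Il6st, the gp130 gene, was covered by 4 probe sets, of which 3 were lower in all 5 pairs. The brightest had 6.69, 7.11, 7.14, 7.19 and 7.21 in mye-macrophages 1 to 5, against 7.31, 7.40, 7.41, 7.40 and 7.33 in control macrophages 1 to 5. It was the 1 probe set of the family whose groups did not overlap, as in 0.283% of all probe sets with mye-macrophages on the lower side. The control samples lay within 0.10 of each other, while mye-macrophage sample 1 stood apart on the low side. The log2 fold change was -0.30 (standard error 0.083, limma with the block, adjusted p = 0.179) and -0.22 without pair 1. On the next 2 probe sets it was -0.21 and -0.24, with adjusted p-values of 0.354 and 0.325 from limma with the block, and pair 1 again had the largest difference on each (-0.52 and -0.58). The dimmest had -0.13 (standard error 0.15), with pairs on both sides of 0, and 0.039 without pair 1. The study had placed Il6st in a downregulated pathway on these same samples, so its direction is not independent evidence.

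Lifr, the receptor chain for Lif, was low on both probe sets, at 1.89 to 2.15 in mye-macrophages against 1.78 to 2.11 in control macrophages on the brighter one, and at 0.33 to 0.81 against 0.47 to 0.73 on the other. The log2 fold changes were 0.069 (standard error 0.086) and 0.0022 (standard error 0.097), and the pairs fell on both sides of 0. Lifr is known from stromal cells more than from macrophages, and signal at this level was not distinguished from background.

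For Stat3, which carries the signal to the nucleus, the 2 probe sets differed from each other. The brighter had 8.78, 8.96, 8.60, 8.29 and 8.47 in mye-macrophages 1 to 5, against 9.09, 9.28, 8.85, 8.57 and 8.83 in control macrophages 1 to 5. The groups overlapped, but the pair differences were the most even of the family, from -0.37 to -0.25 with an SD of 0.044. The log2 fold change was -0.31 (standard error 0.064), or 80.9% of the control level, with an adjusted p of 0.082 from limma with the block. After the variance filter of the study's methods, which tests 15521 probe sets, the adjusted p was 0.041, so that 2 of the 11 family probe sets kept were called lower (Il6 and Stat3), beside 1.9% of the filtered probe sets. The dimmer Stat3 probe set had -0.006 (standard error 0.070), with 3 of 5 pairs above 0, and the difference between the 2 probe sets was not tested.

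Socs3, the feedback inhibitor, did not move in one direction. Its signal was 3.07, 2.60, 3.63, 3.71 and 2.71 in mye-macrophages 1 to 5, against 3.73, 2.49, 3.32, 3.83 and 3.18 in control macrophages 1 to 5. It was lower in 3 pairs and higher in 2, and the ranges overlapped. The log2 fold change was -0.17 (standard error 0.13, limma with the block, adjusted p = 0.677), and pair differences from -0.66 to 0.31 left its direction unsettled. Without pair 1 the fold change was -0.042.

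The spread within a group differed between the family's probe sets. Il6 ran from 5.58 to 7.29 within mye-macrophages and from 6.37 to 7.89 within control macrophages. The brightest Il6st probe set ran from 6.69 to 7.21 in mye-macrophages and from 7.31 to 7.41 in control macrophages. Il6 and Osm ranked the 5 numbers in the same order, lowest in 2, then 1, 5, 3 and 4, in both groups. The brighter Stat3 probe set ranked them 4, 5, 3, 1 and 2 from low to high in both groups, so the number with the most Il6 signal had the least Stat3 signal and the number with the least Il6 had the most Stat3. With 5 pairs this is a description, and samples of a pair share whatever the number stands for, which the labels do not say.

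**Figure D3:**
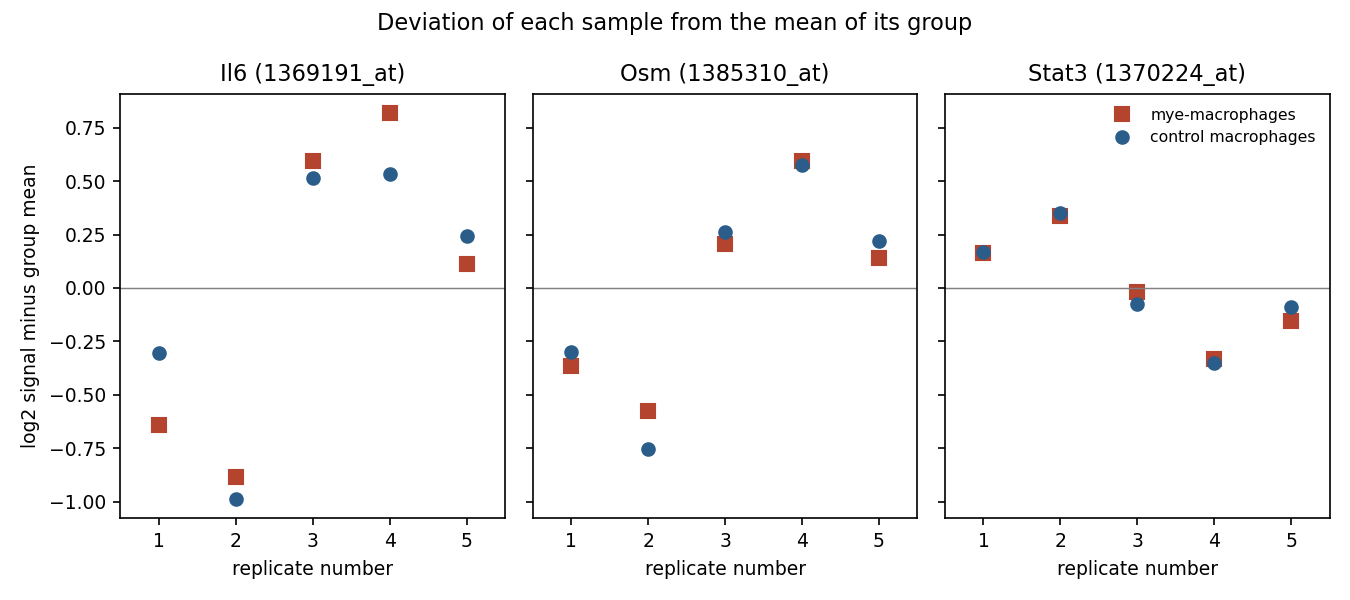
Log2 signal of Il6, Osm and the brighter Stat3 probe set in each sample minus the mean of its group, by replicate number, with squares for mye-macrophages and circles for control macrophages. Within each number both groups lie on the same side of 0, Il6 and Osm are lowest in number 2 and highest in number 4, and Stat3 has the opposite order at these ends.

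The genes whose deviations from the group means were most like those of Il6 included a chemokine and a secreted glycoprotein of inflammation. Over 12144 named probe sets with a mean above the median, the highest Pearson's r over the 10 arrays were those of Lrg1 (0.993), a leucine-rich glycoprotein induced in inflammation, the transcription factor gene Ets2 (0.99), the neutrophil chemokine gene Cxcl1 (0.987), the helicase gene Dhx34 (0.984) and Tm9sf2 (0.982). The 10 arrays form 5 pairs and are not independent, and the highest of so many correlations is high by selection. Between the groups these genes were less alike. Cxcl1 had a log2 fold change of -0.42 and was lower in 5 of 5 pairs (limma with the block, adjusted p = 0.056), whereas Lrg1 had -0.12, Ets2 -0.047, Dhx34 0.0355 and Tm9sf2 0.035. For Socs3 the closest were Ywhaz (0.977), Smarcad1 (0.967), the interleukin-1α gene Il1a (0.966), Rbpj (0.965) and Pcmt1 (0.955). Of these Il1a had the largest difference, -0.54 (standard error 0.14, limma with the block, adjusted p = 0.144), and a second Il1a probe set had -0.23 (adjusted p = 0.559).

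Genes around the family did not pass the test in either direction. In 4 lists, 61 of 67 genes had a probe set (the brightest was used), and limma with the block called 0 of the 61 at an adjusted p under 0.05, also after the variance filter, with 13 at an unadjusted p under 0.05, beside 12.1% of all probe sets in either direction. Of the 8 measured further ligands and receptors of the family, 0 were called, and the median log2 fold change was 0.056. Ebi3, a subunit shared by the related cytokines IL-27 and IL-35, averaged 7.90 ± 0.15 in mye-macrophages and 7.67 ± 0.29 in control macrophages (SD, n = 5 each) and had 0.23 (standard error 0.12, limma with the block, adjusted p = 0.485), higher in 5 of 5 pairs but 0.075 without pair 2. Cntfr, the receptor of ciliary neurotrophic factor, had 0.19 (with 0.096 without pair 4 and -0.057 on a dimmer probe set), and Il27ra had 0.12 at a very low signal.

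Kinases, transducers and inhibitors downstream of gp130 were centred on 0. Of the 20 measured, 0 were called, the median log2 fold change was 0.008, and 10 lay below 0. Pias3, an inhibitor of STAT3, had -0.20 (standard error 0.067) and was lower in 5 of 5 pairs (limma with the block, adjusted p = 0.255). Stat5b had 0.22, which was 0.051 without pair 2, and the suppressor of cytokine signaling Socs1 had -0.18, which was -0.025 without pair 1, 0.061 with the beta-actin gap in the fit and 0.022 on a dimmer probe set.

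Of the 21 genes known as STAT3 targets, 0 were called and the median log2 fold change was 0.023, with 10 below 0. The largest differences pointed both ways. Myc, a regulator of growth, had 0.40 (standard error 0.11, higher in 4 of 5 pairs). The anti-inflammatory cytokine gene Il10 had -0.38 (standard error 0.095, lower in 4 of 5 pairs). Its signal lay under the median of all probe set means, at 1.68 ± 0.69 in mye-macrophages and 2.06 ± 0.86 in control macrophages (SD, n = 5 each). The immediate early gene Fos had -0.35 (standard error 0.080, lower in 5 of 5 pairs, and 0.29 on a dimmer probe set). The lowest adjusted p among the targets, that of Fos, was 0.104 from limma with the block.

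Of the regulators of Il6 transcription and of its mRNA decay, 0 of the 13 measured were called. Their log2 fold changes ran from -0.32 to -0.0034 with a median of -0.16, so all 13 lay below 0, where 48.4% of all probe sets tested did. The smallest were close to 0, with pairs on both sides of it. All 13 were measured on the same samples and do not count as independent genes. At an unadjusted p under 0.05, 5 of the 13 were lower, beside the 6.62% of all probe sets given above. Zfp36, which encodes tristetraprolin and speeds the decay of cytokine mRNAs, averaged 5.89 ± 0.17 in mye-macrophages and 6.21 ± 0.27 in control macrophages (SD, n = 5 each), a difference of -0.32 (standard error 0.090) in 5 of 5 pairs. Zc3h12a, the gene of the ribonuclease Regnase-1, had -0.21 in 5 of 5 pairs, and the NF-κB inhibitor gene Nfkbia had -0.21 in 4 of 5 pairs. Adjusted p-values of these 3 genes were 0.188, 0.251 and 0.371 from limma with the block. By their known roles the list holds genes that raise and genes that lower Il6 transcripts, and its median says nothing of their balance.

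**Figure D4:**
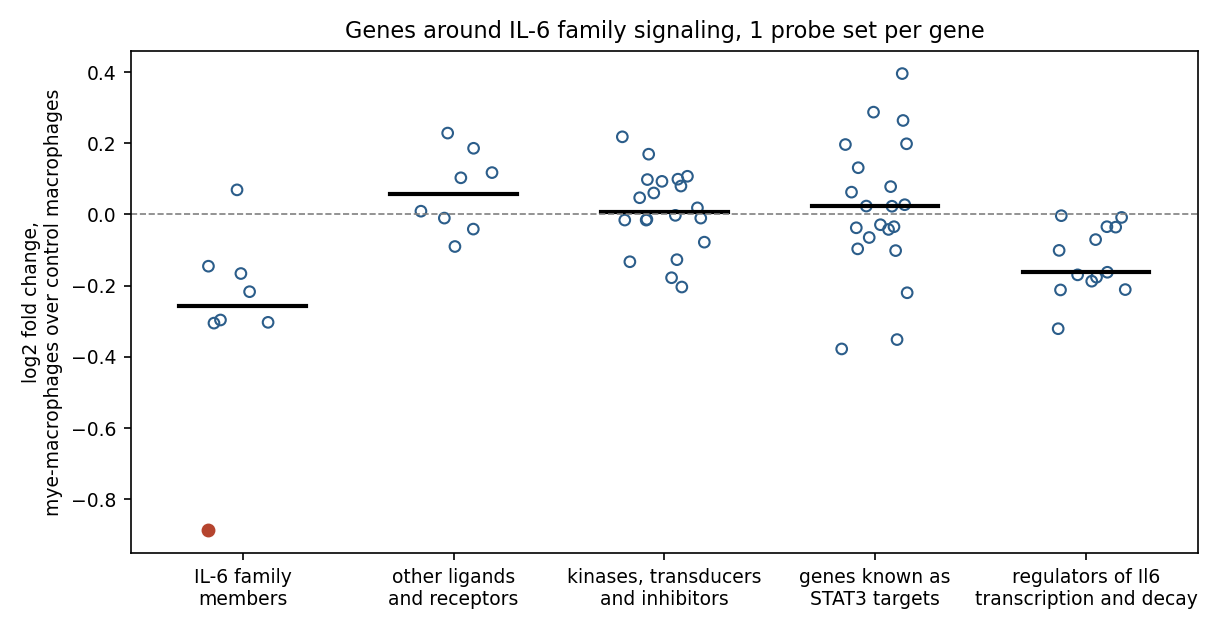
Log2 fold change of mye-macrophages over control macrophages for the measured genes of the IL-6 family and of 4 lists around it, 1 probe set per gene, with black bars at the medians. Il6 (-0.89) is the 1 filled point, which passed an adjusted p of 0.05, and the 13 regulators of Il6 all lie below 0.

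Markers of the cells were checked on the same arrays. Macrophage markers were mostly present. The mean log2 signal of the 10 measured genes was 6.37 to 7.76 in mye-macrophages and 6.34 to 7.51 in control macrophages. Of the 10, 0 were called over all probe sets. Under the median of all probe set means lay 2 of them. These were C1qb (2.24 in mye-macrophages and 2.23 in control macrophages) and Cd163 (1.18 and 0.95). The macrophage mannose receptor gene Mrc1 averaged 2.99 ± 1.54 in mye-macrophages and 2.29 ± 1.34 in control macrophages (SD, n = 5 each) and was higher in 5 of 5 pairs, with a log2 fold change of 0.71 (limma with the block, adjusted p = 0.053, and 0.0265 after the variance filter). Genes of mesothelial cells and fibroblasts, which can also make IL-6, averaged 1.85 to 2.25 in mye-macrophages and 1.80 to 2.28 in control macrophages, and 0 of 15 were called. Of the 15, 9 lay under the median of all probe set means, while Msln, Lrrn4, Dcn, Pdgfrb, Thy1 and Sparc lay above it. Dcn averaged 3.56 ± 1.74 in mye-macrophages and 3.74 ± 1.62 in control macrophages (SD, n = 5 each). Thy1 averaged 3.65 ± 0.75 in mye-macrophages and 3.95 ± 1.02 in control macrophages (SD, n = 5 each). Marker genes of T, B and NK cells averaged 1.57 to 2.53 in mye-macrophages and 1.71 to 2.41 in control macrophages. Of these 11 genes 7 lay under the median of all probe set means, while Cd3e, Cd2, Nkg7 and Gzmb lay above it. Cd2 averaged 3.70 ± 0.44 in mye-macrophages and 3.49 ± 0.32 in control macrophages (SD, n = 5 each). Marker genes of granulocytes and mast cells averaged 1.52 to 2.98 in mye-macrophages and 1.37 to 2.92 in control macrophages. In each list 0 of 11 were called. Under the median of all probe set means lay 9 of the 11 granulocyte and mast cell genes, but not the mast cell genes Cpa3 and Fcer1a. Cpa3 averaged 5.19 ± 2.00 in mye-macrophages and 5.07 ± 1.76 in control macrophages (SD, n = 5 each). Fcer1a averaged 3.33 ± 1.75 in mye-macrophages and 2.98 ± 1.81 in control macrophages (SD, n = 5 each). Of 12 measured myelin and oligodendrocyte genes, 3 were called higher on 1 probe set each. These were Mobp, with a log2 fold change of 3.60, the myelin basic protein gene Mbp, with 3.37, and Bcas1, with 1.76 (limma with the block, adjusted p = 0.00386, 0.00175 and 0.00667). The Mbp probe set with the highest mean over all arrays, which stands for the gene in the list, is another one and had -0.20. With 1 probe set per gene the list averaged 2.75 to 3.00 in mye-macrophages and 2.21 to 2.58 in control macrophages. The part of these cells and of carried-over myelin in the Il6 result was not tested. The study reports, without showing the data, that RNA in the added myelin was negligible and not the source of the Mbp rise.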

How the data were processed

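Per the labels and the study's methods, RNA was hybridized to 10 Affymetrix arrays and CEL files were turned into RMA values with the affy package. The authors deposited these log2 values for 31099 probe sets, none removed, with array medians of 2.30 to 2.34, which are low for RMA for a reason not given in the sources used here. Affymetrix controls (57 probe sets) were not tested. Symbols came from the array annotation, in which 20826 of the 31042 probe sets tested have 1 symbol, 436 several and 9780 none.

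Differences were tested two-sided in R 4.3.3 by lmFit and eBayes of limma 3.58.1, blocked on replicate number, and p-values were adjusted over all probe sets tested, with a threshold of 0.05. The numbers pair the samples: deviations from the group means correlated at 0.404 to 0.791 for samples with the same number, and at most at 0.279 otherwise. What a number stands for is stated neither in the labels nor in the methods. The methods name an unpaired test after a variance filter that removed 50% of probe sets. The filter with the block, the unpaired test over all probe sets and, added after the results were known, the unpaired test after the filter were run as alternatives, beside other scalings, array weights, an intensity trend, the beta-actin gap as a covariate and each pair left out. The script was tested on simulated data. Precision is limited by how few arrays there are.

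The members and lists were chosen with earlier results of these data known. Named were all family probe sets, every gene called and the 3 largest differences of each pathway list, and the 5 probe sets most like Il6 and Socs3. Mrc1, C1qb, Cd163, Cpa3, Fcer1a, Mbp and the mesothelial, fibroblast, T, B and NK cell genes named in the marker lists were picked with their values in view. A gene on several probe sets enters a list with the one of the highest mean. Promoters came from RefSeq (GRCr8). Python 3.11.15 with SciPy 1.17.1 was used.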

Additional observations from a re-analysis of the deposited data

Results flagged for a closer look

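Among the 25 probe sets of the family and of the genes named from the lists, each group of 5 samples was searched for a sample that stood apart, and 2 of 50 groups had one, where chance gives about 1 in 20. Mye-macrophage sample 1 had a log2 signal of 6.69 for the brightest Il6st probe set, with its nearest neighbour in the group at 7.11. Mye-macrophage sample 2 had a log2 signal of 6.22 for Stat5b, with its nearest neighbour at 5.16.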

How the results depend on the processing

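Il6 kept its direction in all alternatives run, with log2 fold changes from -0.96 to -0.77 and adjusted p-values from 8.2e-05 to 0.996 (limma). It no longer passed without the replicate block (-0.89), with beta-actin gap added as a covariate (-0.77), without pair 2 or without pair 5. In the methods' t-test it did not pass either (adjusted p = 0.997). With 1 pair left out it had -0.96 to -0.80 (limma, adjusted p = 0.0115 to 0.0509). The number of probe sets called was 128, and it was 0 without the replicate block and 0 with the methods' t-test, where 1385 and 1437 had an unadjusted p under 0.05. The methods' t-test after the variance filter, chosen after seeing the data, called 0 of all probe sets kept, with 778 at an unadjusted p under 0.05, and 0 of the family. The number called was 418 with the variance filter and the replicate block, 239 with array weights, 648 with an intensity trend and robust prior, 3 with the beta-actin gap, 55 with 1 probe set per gene, and 11 to 300 with 1 pair left out, of which 300 was without pair 3. Of the family, 1 probe set was called, against 0 without the replicate block, with the beta-actin gap or with the methods' t-test, 2 with the variance filter, 4 with the intensity trend (Il6, Il6r and the brightest Il6st and Stat3 probe sets) and 0 to 1 with 1 pair left out. In the lists, the intensity trend called 1 gene (Fos, limma, adjusted p = 0.0442).

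Sign changes occurred for probe sets with log2 fold changes between -0.18 and 0.12. With beta-actin gap added as a covariate, the dimmest Il6st probe set had 0.14, the brighter and the dimmer Lifr probe set -0.069 and -0.062, Socs3 0.034, the dimmer Stat3 probe set 0.051 and Socs1 0.061. Quantile normalization gave -0.0088 for the dimmer Lifr probe set and 0.0092 for the dimmer Stat3 probe set, which had 0.011 with array weights. With 1 pair left out, the dimmest Il6st probe set ran from -0.28 (without pair 3) to 0.039 (without pair 1), the brighter Lifr probe set from -0.0059 (without pair 1) to 0.13, the dimmer one from -0.082 (without pair 5) to 0.075, the dimmer Stat3 probe set from -0.033 to 0.031 (without pair 2), and Il27ra from -0.017 (without pair 2) to 0.21. Neither the cause of the lost calls nor that of the sign changes was tested.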
